A study of Mus musculus with 3 samples.

Results

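Pendrin intercalated cells are the cells of the connecting tubule and collecting duct that secrete bicarbonate, and they comprise type B and the other intercalated cells that carry pendrin. They were sought here among 73281 barcodes from FA-treated kidneys, and 329 were found among the 48404 cells kept, 127 and 135 in the *Aoah-/-* libraries 2 and 3 and 67 in the WT library 3. A barcode was kept with at least 200 genes, at least as many unique molecular identifiers (UMIs, each standing for a captured RNA molecule) as the shallowest barcode of *Aoah-/-* 3, and at most 50% of UMIs from mitochondrial genes. A kept cell was called a pendrin intercalated cell if at least 2 of *Atp6v1g3*, *Atp6v0d2* and *Foxi1* were detected, and if *Slc26a4*, *Insrr* and *Spink8* together gave at least 2 UMIs and no fewer than *Slc4a1*, *Aqp6* and *Kit* together. It could hold at most 2 UMIs of *Lrp2*, *Slc34a1* and *Slc12a1*, and at most 1 UMI of *Ptprc* and *Tyrobp*. Since these genes chose the cells, their levels in the cells are given as a description.

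Intercalated cells are the acid-base cells of the distal nephron, and all of them are rich in the vacuolar proton pump (V-ATPase) and depend on the forkhead factor *Foxi1*. Type A cells pump protons into the urine and return bicarbonate to the blood through the anion exchanger *Slc4a1*. Type B cells work the other way round, and exchange luminal chloride for bicarbonate through pendrin, the product of *Slc26a4*.

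The study asked what the loss of acyloxyacyl hydrolase (*Aoah*), a lipase that inactivates lipopolysaccharide, does to the injured kidney, and single-cell RNA sequencing was done on kidneys 14 days after folic acid (FA), a nephrotoxic dose of which injures the tubules and leads to fibrosis. All mice had received FA, and the labels give an age of 6 to 8 weeks. The *Aoah-/-* mice carried the knockout in all cells, and the WT mice were littermates. There were 2 *Aoah-/-* libraries (replicates 2 and 3) and 1 WT library (replicate 3), made with droplets from whole digested kidney without sorting, from 2 *Aoah-/-* mice and 1 WT mouse. With 1 WT library no test between the genotypes was made, and no p-value is given. The *Aoah-/-* libraries held 25516 and 24693 barcodes with 167222984 and 161015021 UMIs, and the WT library held 23072 barcodes with 158551992 UMIs. The shallowest barcodes of *Aoah-/-* 2 and WT 3 held 500 UMIs and those of *Aoah-/-* 3 held more, so 6070 and 5823 barcodes of the former pair lay under the UMI limit and 0 of *Aoah-/-* 3. The libraries shared 171 to 176 barcodes in each pair, and none of these was a pendrin intercalated cell.

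The genes of the rule were found in the cells as follows, which is a description and no check of the label. *Slc26a4* was detected in 308 of the 329 cells (93.6%), *Insrr*, the alkali-sensing relative of the insulin receptor, in 291, and *Spink8*, a Kazal-type serine protease inhibitor, in 297. All 3 were found together in 263 cells. The pump subunit *Atp6v1g3* was detected in 326 cells and *Foxi1* in 293. The label was checked with genes that the rule did not use. *Hmx2*, a homeobox transcription factor, was detected in 274 of the 329 cells (83.3%) and in 5 of the 350 type A intercalated cells. The type A cells were chosen by the mirrored rule (*Slc4a1*, *Aqp6* and *Kit* at 2 or more UMIs and above the pendrin genes) and numbered 108, 126 and 116 in *Aoah-/-* 2, *Aoah-/-* 3 and WT 3. *Slc4a9*, the basolateral anion exchanger of type B cells, was detected in 215 pendrin cells at a low level, with 89.4, 74.0 and 89.4 UMIs per 1000000 in the 3 libraries. It was also detected in 36 of 108, 47 of 126 and 56 of 116 type A cells, and when every cell was thinned to the UMI limit it was found in 14.2%, 14.1% and 16.4% of pendrin cells and 4.63%, 7.14% and 9.48% of type A cells. No division into type B and other pendrin cells was made.

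The start region of *Slc26a4* is given here because the class is named for its product, and that of *Atp6v1b1*, which encodes a pump subunit typical of intercalated cells, because it alone held the forkhead letters that were searched. Both are RefSeq promoters of GRCm38.p6, from 250 bases before to 50 bases after the start, written 5′ to 3′ on the strand of the gene. *Slc26a4* lies on chr12:31559935-31560234 (minus strand) and *Atp6v1b1* on chr6:83742767-83743066 (plus strand). The forkhead motif TGTTTAC, or GTAAACA on the other strand, is printed in capitals.
Slc26a4: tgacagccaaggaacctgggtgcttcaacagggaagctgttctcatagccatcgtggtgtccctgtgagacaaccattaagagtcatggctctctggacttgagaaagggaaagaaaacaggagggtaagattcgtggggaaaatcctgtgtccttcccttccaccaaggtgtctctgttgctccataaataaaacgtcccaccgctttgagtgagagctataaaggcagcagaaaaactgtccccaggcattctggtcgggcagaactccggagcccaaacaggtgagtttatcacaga
Atp6v1b1: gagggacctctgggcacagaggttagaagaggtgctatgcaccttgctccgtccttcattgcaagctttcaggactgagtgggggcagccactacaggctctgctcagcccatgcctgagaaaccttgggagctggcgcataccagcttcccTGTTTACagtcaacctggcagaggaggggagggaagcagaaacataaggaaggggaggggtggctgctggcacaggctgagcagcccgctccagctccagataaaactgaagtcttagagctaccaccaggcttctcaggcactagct

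Among the marker genes and the genes of the profile described next, 44 were searched, 31 had a promoter in the RefSeq table, and 1 of their 39 promoters held the motif. It began 98 bases before the start of *Atp6v1b1*. Of all 32851 promoters of this length, 3.65% held it. The match is a description of the letters and was not tested for binding.

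**Figure D1:**
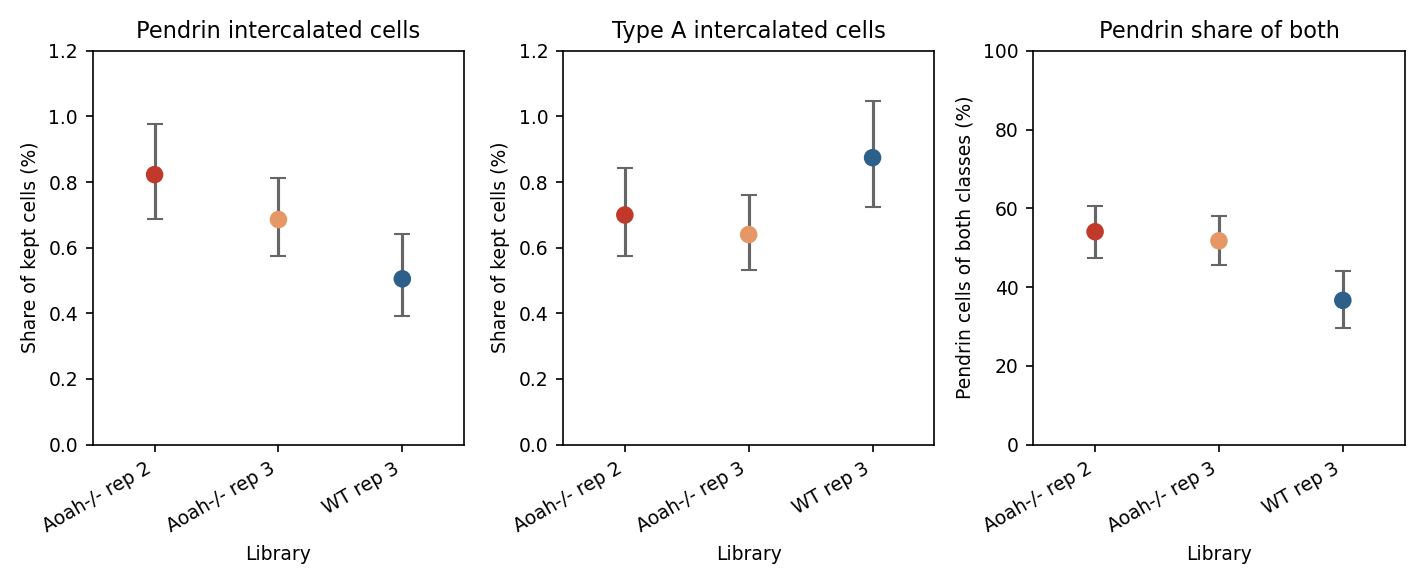
Shares of kept cells (%, the first 2 panels) taken by pendrin and by type A intercalated cells, and the share of pendrin cells among both classes (%, the last panel), in each library. Points are libraries and bars are exact Clopper-Pearson 95% intervals; in the last panel the *Aoah-/-* libraries lie at 54.0% and 51.7% and the WT library at 36.6%, with no overlap of the intervals.

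Pendrin intercalated cells made up 0.822% of the kept cells of *Aoah-/-* 2 (exact Clopper-Pearson 95% interval, 0.686 to 0.978), 0.686% of *Aoah-/-* 3 (0.575 to 0.811) and 0.505% of WT 3 (0.391 to 0.641). These intervals, like all those that follow, cover counting error only. Both *Aoah-/-* libraries lay above the WT library, by 0.249 percentage points on average (mean 0.754% against 0.505%), with an SD of 0.0968 between the *Aoah-/-* libraries. The interval of *Aoah-/-* 3 overlapped that of WT 3. The size of this difference depended on the limits for proximal and leukocyte UMIs. It was 0.0132 percentage points when no such UMI was allowed, where *Aoah-/-* 2 (27 of 15441 cells) lay below WT 3 (24 of 13271) and *Aoah-/-* 3 (42 of 19692) above it, and it was 0.652 when both limits were lifted. Proximal tubule cells were 31.5% and 31.4% of the kept cells of the *Aoah-/-* libraries and 49.1% of WT 3, and leukocytes were 23.5%, 18.3% and 15.5%. More pendrin cells in the kidney, fewer other cells in the suspension and a different recovery cannot be told apart from these shares.

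Type A cells went the other way, at 0.699% and 0.640% of the kept cells of the *Aoah-/-* libraries and 0.874% of WT 3. Among all intercalated cells called, 54.0% were pendrin cells in *Aoah-/-* 2 (47.4 to 60.5), 51.7% in *Aoah-/-* 3 (45.5 to 57.9) and 36.6% in WT 3 (29.6 to 44.0). Neither *Aoah-/-* interval overlapped that of the WT library. There were 1.18 and 1.07 pendrin cells for each type A cell in the *Aoah-/-* libraries and 0.578 in the WT library, a difference of 0.546 that stayed above 0 under every alternative tried (0.425 to 0.769). The spread between WT mice is not known from 1 library.

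The pendrin cells were among the deeper cells of each library. Their median UMI total was 18722, 13354 and 18346 in *Aoah-/-* 2, *Aoah-/-* 3 and WT 3, against 10944, 10597 and 12533.5 in type A cells and 3488 to 4162 in leukocytes. Single pendrin cells ranged from 1732 to 45364 UMIs. Their median gene number was 4139, 3685 and 4179, and the median mitochondrial share was 23.04%, 18.2% and 20.7%. The 329 cells gave 2293760, 1918040 and 1230235 UMIs in all. Levels below are the UMIs of a gene summed over these cells per 1000000 of those totals (CPM), with exact Poisson 95% intervals, and compare the same gene between classes or libraries, not different genes.

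*Slc26a4* stood at 1289 CPM in *Aoah-/-* 2 (1243 to 1336), 1222 in *Aoah-/-* 3 (1173 to 1272) and 1073 in WT 3 (1016 to 1132). *Insrr* was at 394, 377 and 287 CPM, and was lower in WT 3 than in both *Aoah-/-* libraries. *Spink8* ran the opposite way, at 737, 792 and 1075 CPM. None of these markers reached the 2-fold rule between genotypes set out below. *Atp6v1g3* was at 5358, 5740.2 and 5110.4 CPM and *Foxi1* at 649, 516 and 501 CPM, and the *Foxi1* level in type A cells was close to these values (634, 580.1 and 481).

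To compare the shares of cells with a UMI at 1 depth, every cell was thinned to the UMI limit. *Slc26a4* was then found in 80.3%, 72.6% and 68.7% of the pendrin cells, in 1.9%, 0.8% and 0.9% of type A cells, and in 0.3%, 0.2% and 0.2% of leukocytes, which should lack it. Before thinning it was found in 94.5%, 94.1% and 91.0% of the pendrin cells. *Hmx2* was found in 53.5%, 45.9% and 56.7% of thinned pendrin cells and in 0%, 0.8% and 0.9% of thinned type A cells. Of the 3 pendrin genes, which all chose the cells, *Spink8* had the highest shares in type A and principal cells. It was present in 56.7%, 64.4% and 79.1% of pendrin cells and in 21.3%, 15.1% and 21.6% of type A cells. In principal cells the *Spink8* shares were 24.8%, 32.5% and 25.4%. *Insrr* was found in 46.5%, 45.9% and 29.9% of pendrin cells and in 5.6%, 0.8% and 2.6% of type A cells. A proximal tubule transcript was found in every class. *Kap*, which is androgen-regulated, was found in 47.2%, 59.3% and 53.7% of thinned pendrin cells and in 71.8%, 77.8% and 76.6% of thinned leukocytes, which should lack it, so that its share in pendrin cells is not read as expression. The part of free RNA in these shares was not tested.

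**Figure D2:**
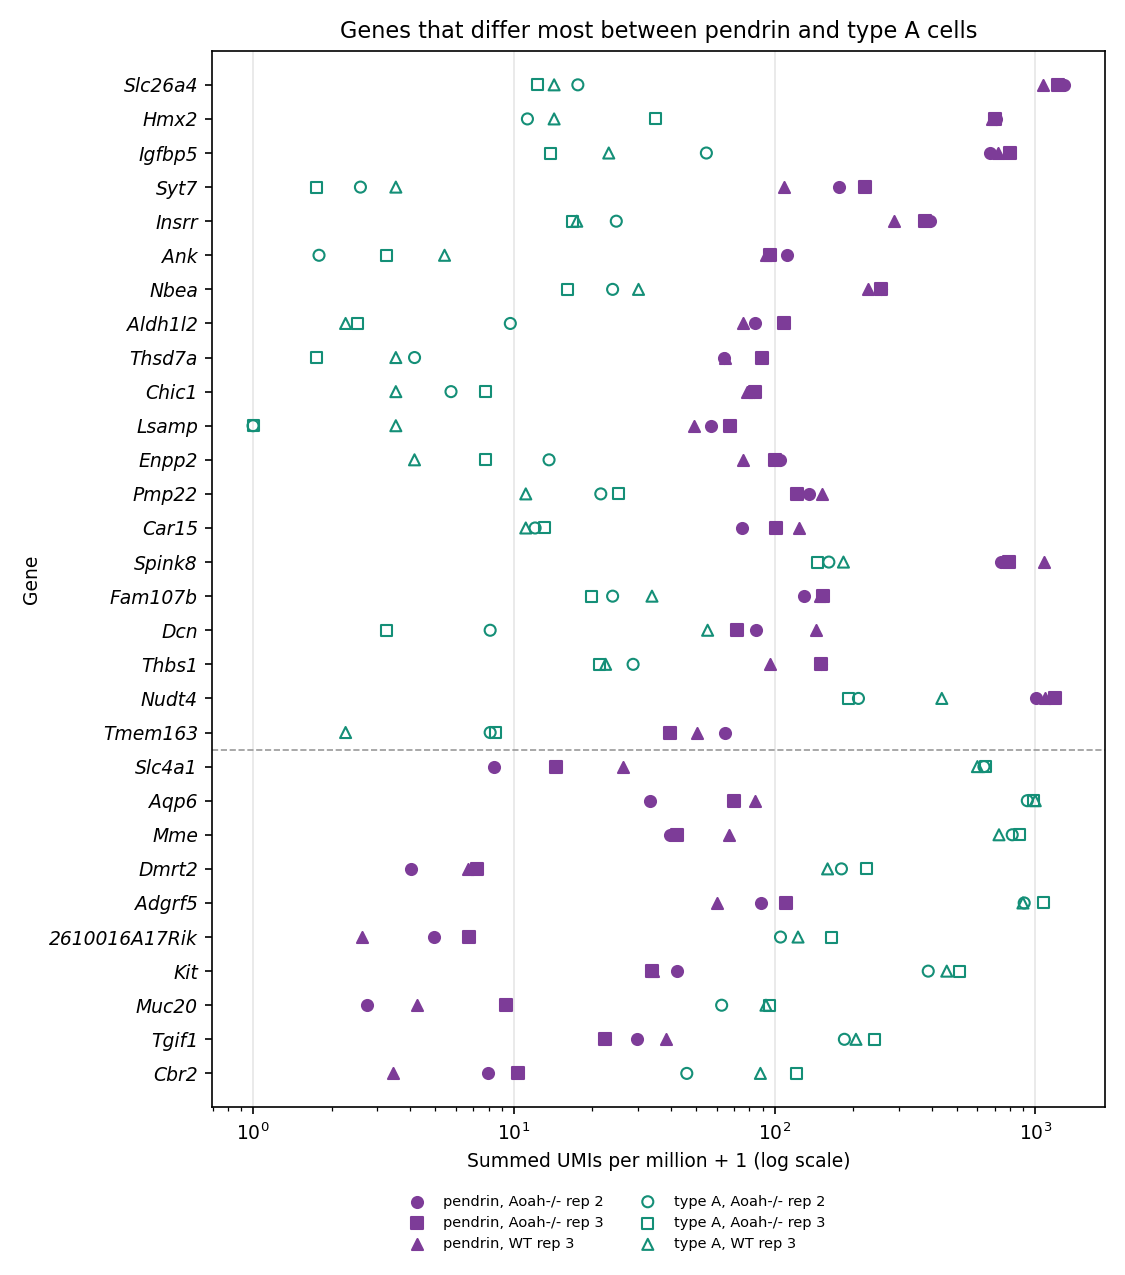
Levels (summed UMIs per 1000000 plus 1, log scale) of the 20 genes highest and the 10 genes lowest in pendrin against type A intercalated cells, 1 point for each class and library. The points of the classes are farthest apart for *Slc26a4* and *Syt7* among the higher genes and for *Slc4a1* among the lower genes, and the 3 libraries of a class lie close together for most genes.

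Pendrin and type A cells of the same libraries were compared next, as a description, since both classes were cut from the same cells by marker genes. A gene was counted if it differed at least 2-fold in the same direction in 3 of 3 libraries, with 10 CPM added, and reached 50 CPM in the higher class. Of 3211 genes at that level, 44 were higher in pendrin cells (1.37%) and 37 were lower (1.15%). The leading gene was *Slc26a4* itself (chr12:31519827-31559969 on mm10, minus strand), at 16.6, 11.3 and 13.3 CPM in type A cells, a mean log2 ratio of 5.67 (SD 0.16 over the 3 libraries). *Insrr* (3.66, SD 0.22) and *Spink8* (2.33, SD 0.18), which the rule also used, were among the 20 leading genes.

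The other leading genes were not part of the rule. *Hmx2* (chr7:131548773-131558014, plus strand) was at 707, 702 and 683 CPM in the pendrin cells of *Aoah-/-* 2, *Aoah-/-* 3 and WT 3, and at 10.3, 33.9 and 13.3 CPM in type A cells (mean log2 ratio 4.69, SD 0.59). Its pendrin cell levels differed little between the libraries and did not overlap those of type A cells. *Igfbp5* (chr1:72857932-72874884, minus strand), an insulin-like growth factor binding protein, was at 669.6, 798 and 716 CPM against 53.8, 12.8 and 22.1 CPM (4.35, SD 0.88). *Syt7*, a calcium sensor of regulated exocytosis, was at 176, 222 and 108 CPM against 1.58, 0.754 and 2.53 CPM (3.89, SD 0.60).

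Further leading genes had smaller ratios. *Ank*, which exports ATP and pyrophosphate, was at 110.3, 94.9 and 91.9 CPM and at no more than 4.43 CPM in type A cells (3.13, SD 0.33). *Nbea*, a vesicle trafficking protein, was at 254, 256 and 228 CPM against 22.9, 15.1 and 29.1 CPM (3.0, SD 0.40). *Aldh1l2*, a mitochondrial enzyme of folate metabolism, was at 83.3, 108 and 74.8 CPM against 8.70, 1.51 and 1.26 CPM (2.86, SD 0.52). Since every mouse had received FA, these data hold no level of *Aldh1l2* without it. The adhesion proteins *Thsd7a* (2.74) and *Lsamp* (2.63), the myelin protein *Pmp22* (2.39), the membrane-anchored carbonic anhydrase *Car15* (2.35), the zinc transporter *Tmem163* (1.99) and the diphosphoinositol phosphatase *Nudt4* (2.03) were in the same leading set, as were *Chic1* (2.64) and *Fam107b* (2.15).

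Some of the leading genes also belonged to other cells of the kidney. *Enpp2*, which encodes the lysophospholipase autotaxin, was at 104, 99.1 and 74.8 CPM in pendrin cells (log2 ratio 2.57) but at a mean of 219 CPM in proximal tubule cells. *Nudt4* was at 1009, 1189 and 1084 CPM in pendrin cells, and at a mean of 1588 CPM in principal and 1232 CPM in distal convoluted tubule cells. *Thbs1*, which encodes thrombospondin, was at 149, 150.2 and 95.1 CPM (2.07) with a mean of 327 CPM in leukocytes. *Dcn*, which encodes the matrix proteoglycan decorin, was at 84.1, 70.9 and 143 CPM against 7.12, 2.26 and 54.4 CPM (2.14, SD 0.79), while 4, 2 and 0 of the 6 fibroblast and pericyte genes were at 0 in the pendrin cells of the 3 libraries. In WT 3, 1 cell held 34.7% of the *Dcn* UMIs of pendrin cells, and 1 cell held 89.5% of those of type A cells. The part of fibroblast RNA in the *Dcn* level was not tested.

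Beyond these 20, the 44 higher genes held several of known function, chosen here after their values were seen. *Jag1*, a Notch ligand, was at 201, 247 and 179 CPM against 60.1, 64.1 and 51.8 CPM (1.66, SD 0.11). *Car12*, a membrane-bound carbonic anhydrase, was at 1284, 1441 and 1110.4 CPM against 444, 447 and 343 CPM (1.62, SD 0.09). *Ptges*, which makes prostaglandin E, was at 160.4, 116 and 132 CPM against 33.2, 35.5 and 55.6 CPM (1.52, SD 0.43). The prolactin receptor *Prlr* was at 86.3, 86.0 and 33.3 CPM against 11.9, 9.05 and 8.85 CPM (1.89, SD 0.61), and was lower in the WT library than in both *Aoah-/-* libraries. *Cst3*, which encodes the protease inhibitor cystatin C, was at 1331, 1325 and 1336 CPM against 367, 423 and 452 CPM (1.67, SD 0.15), and *S100a1*, a calcium-binding protein, at 2696, 2649.6 and 2013 CPM against 1221, 1255 and 948 CPM (1.10, SD 0.04).

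The genes that were lower in pendrin cells were led by the type A genes of the rule. *Slc4a1* (chr11:102348824-102366203, minus strand) was at 7.41, 13.6 and 25.2 CPM in pendrin cells and at 634, 643 and 599 CPM in type A cells (mean log2 ratio −4.70, SD 0.55). *Aqp6*, an aquaporin of intracellular vesicles, was at −3.86 (SD 0.55) and the receptor tyrosine kinase *Kit* at −3.33 (SD 0.34). The rule did not use the other genes, and 4 of them ranked between *Aqp6* and *Kit*. *Mme*, which encodes the peptidase neprilysin, was at 38.8, 41.2 and 65.8 CPM against 814, 868 and 724 CPM (−3.82, SD 0.47). *Dmrt2* (chr19:25672411-25678991, plus strand), a DM-domain transcription factor, was at 3.05, 6.26 and 5.69 CPM against 179, 223 and 159 CPM (−3.71, SD 0.25), and the neighbouring antisense transcript *2610016A17Rik* followed it at −3.34. *Adgrf5*, an adhesion G protein-coupled receptor, was at 87.6, 110.0 and 59.3 CPM against 905, 1069.6 and 895 CPM (−3.37, SD 0.29). The mucin *Muc20* (−2.69), the homeobox repressor *Tgif1* (−2.50) and the carbonyl reductase *Cbr2* (−2.47) completed the 10 lowest.

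**Figure D3:**
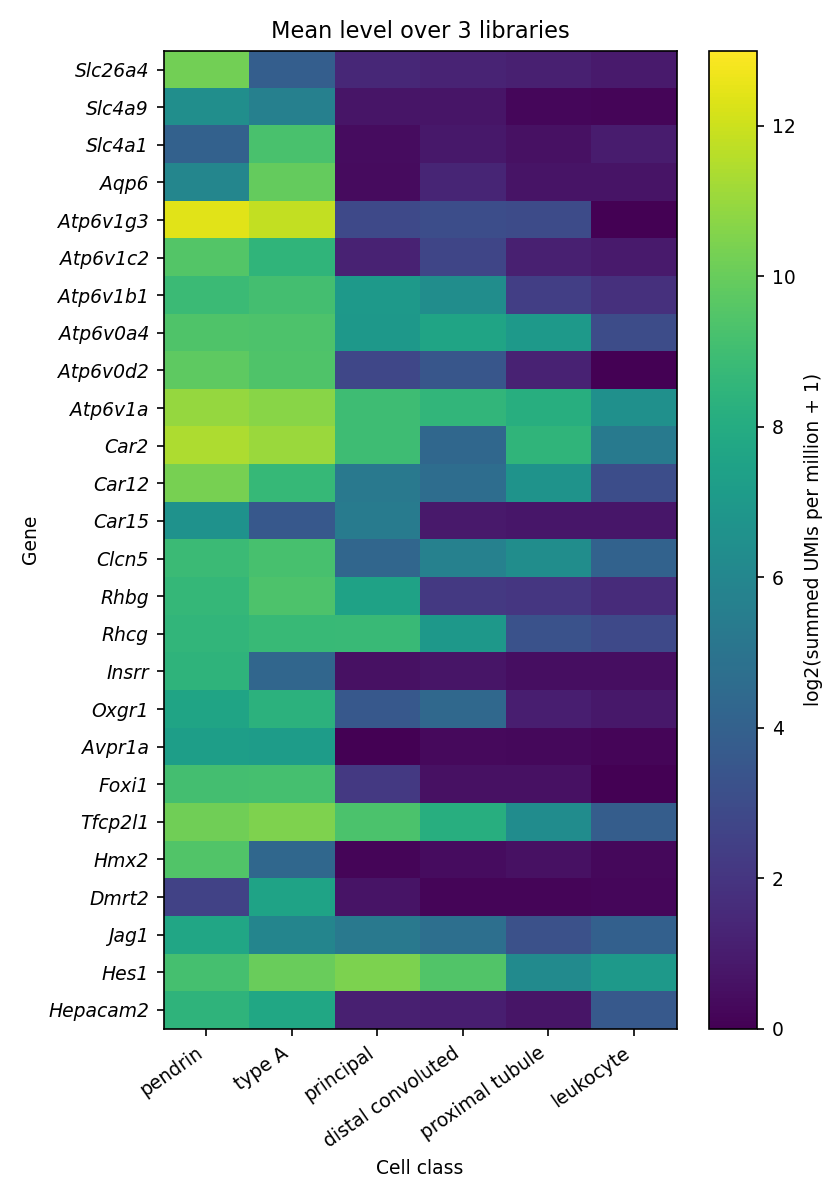
Mean level over the 3 libraries (log2 of summed UMIs per 1000000 plus 1, colour) of selected genes (vertical axis) in pendrin, type A, principal, distal convoluted tubule and proximal tubule cells and leukocytes (horizontal axis). *Atp6v1g3* and *Foxi1* are shared by pendrin and type A cells, *Slc26a4* and *Hmx2* are high in pendrin cells, and *Slc4a1* and *Dmrt2* in type A cells. Of these genes, *Hmx2* and *Dmrt2* were not used to choose the classes, and the others were.

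The genes of acid and base transport were then read list by list, each beside the median log2 ratio of pendrin to type A cells over all 3211 genes, which was 0.03. Of these 3211 genes, 1.37% were higher and 1.15% were lower in pendrin cells. Of 23 V-ATPase genes, 18 reached 50 CPM, none was 2-fold higher or lower in all libraries, and their median ratio was 0.25. The catalytic subunit *Atp6v1a* was at 1868, 2089 and 1910.2 CPM in pendrin cells against 1671, 1690.4 and 1597 CPM in type A cells. *Atp6v1c2* came nearest to the limit, at 758, 743 and 708 CPM against 349, 383 and 359 CPM (1.00, SD 0.09). *Atp6v1b1*, whose promoter is shown above, was at 436, 563 and 406 CPM against 537, 622 and 511 CPM (−0.25, SD 0.10). *Atp6v1g3* was at a log2 ratio of 0.60 (SD 0.09). Over the 23 genes, the summed level was 16996.5, 18229 and 16691 CPM in pendrin cells and 13335, 14426 and 12642.5 CPM in type A cells, against a mean of 3458 CPM in principal cells. This sum includes *Atp6v1g3* (5358, 5740.2 and 5110.4 CPM in pendrin cells) and *Atp6v0d2*, which both helped to choose the pendrin and type A cells. The choice of principal cells limited the detection of the same genes, so the sums are given as a description.

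Of 26 genes of chloride, bicarbonate and ammonia transport, 12 reached 50 CPM, and *Slc26a4* was higher and *Slc4a1* lower, with a median ratio of 0.09. Both are genes of the rule, so their difference is a description, and no other gene of this list was 2-fold different in all libraries. The endosomal exchanger *Clcn5* was at 418, 627 and 335 CPM against 647, 726 and 439 CPM (−0.40, SD 0.21). The ammonia channel *Rhbg* was at 347, 502 and 357 CPM against 718, 629.8 and 630.3 CPM (−0.72, SD 0.36). *Slc26a7* and *Slc4a10* gave no UMI in any pendrin cell. Of 10 carbonic anhydrases, 3 reached 50 CPM and 2 of them, *Car12* and *Car15*, were higher in pendrin cells, beside 1.37% of all 3211 genes. The cytosolic *Car2* was at 2508, 3211 and 2323 CPM against 2064, 2414 and 1821 CPM (0.35, SD 0.07).

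Of 22 receptors and hormone response genes, 8 reached 50 CPM and only *Insrr*, a gene of the rule, was higher (median ratio −0.05). *Oxgr1*, the 2-oxoglutarate receptor, was at 172, 206 and 205 CPM against 327, 359 and 296 CPM (−0.72, SD 0.20), and the vasopressin receptor *Avpr1a* was at 144, 187 and 131 CPM against 149, 157 and 125 CPM. Of 28 transcription factors and Notch genes, 10 reached 50 CPM, *Hmx2* and *Jag1* were higher and *Dmrt2* was lower (median −0.20). *Tfcp2l1*, a factor shared by the collecting duct cells, was at 1114, 1331 and 1038 CPM against 1392, 1589 and 1390.1 CPM (−0.33, SD 0.08), and the Notch target *Hes1* at 608, 598 and 493 CPM against 927, 1309 and 951 CPM (−0.88, SD 0.26). The Notch ligand *Dll1* stayed under 50 CPM, at 36.2, 29.7 and 37.4 CPM against 2.37, 2.26 and 5.06 CPM. Of 16 ion pump and potassium channel genes, 9 reached 50 CPM and none was 2-fold different in all libraries (median 0.22), and the same held for 20 of 20 respiratory chain genes (median 0.22) and 13 of 17 glycolysis genes (median 0.26).

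Host defence and stress genes were read in the same way, beside the 1.15% of all genes that were lower in pendrin cells. Of 19 antimicrobial and innate genes, 5 reached 50 CPM and 3 were lower (median −1.26). They were *Defb1*, a beta-defensin, at 384, 590.2 and 665 CPM against 2111, 2532 and 2696 CPM (−2.17, SD 0.23), *Pigr*, the polymeric immunoglobulin receptor, at 23.5, 18.2 and 10.6 CPM against 87.0, 119 and 77.8 CPM (−1.94, SD 0.36), and *Wfdc15b* (−1.26, SD 0.26). All 22 immediate early and heat shock genes reached 50 CPM, and *Hspb1* (−1.60), *Hspa1b* (−1.46) and *Klf4* (−1.33) were lower (list median −0.38). Tissue digestion is known to induce such genes, and its part in these levels was not tested. Of 22 tubule injury genes, 13 reached 50 CPM, and *Sox9*, a transcription factor of tubular repair (−1.76, SD 0.13), and the small heat shock protein *Cryab* (−2.17, SD 0.61) were lower (median −0.29). *Spp1*, which encodes osteopontin, was at 4655, 4796 and 4879.6 CPM against 3556, 3294 and 3206 CPM (0.51, SD 0.11).

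MHC class II genes were low in the pendrin cells. Of 10 MHC class II genes, only *Cd74*, the invariant chain, reached 50 CPM, at 47.5, 80.3 and 54.5 CPM in pendrin cells against 65.6, 103 and 89.1 CPM in type A cells. Of its 67 UMIs in WT 3, 43.3% came from 1 cell. Its mean was 210.2 CPM in proximal tubule cells and 8565 CPM in leukocytes. A *Cd74* UMI was found in 42.5%, 54.8% and 25.4% of pendrin cells before thinning. After thinning it was found in 4.7%, 20.7% and 4.5% of them, so that only *Aoah-/-* 3 stood apart, and in 63.6%, 55.4% and 56.7% of leukocytes. Proximal tubule cells (17.5%, 34.2% and 11.2%) and distal convoluted tubule cells (8.6%, 17.7% and 5.4%) had their highest share in the same library, and the part of free RNA in these shares was not tested. *H2-K1*, of MHC class I, was at 314, 298 and 322 CPM against 388, 458 and 371 CPM. None of the 12 MHC class I genes (5 at 50 CPM), 20 interferon-induced genes (3) and 21 chemokine and cytokine genes (7, led by *Spp1*) was 2-fold different between pendrin and type A cells in all libraries. No gene of the cell cycle list (14) or of the phospholipid and lipopolysaccharide list (9) reached 50 CPM. *Aoah* itself gave 0 UMIs in 127 and 135 cells of the *Aoah-/-* libraries, which allows a share of up to 2.36% and 2.22% of cells with a UMI (3 counts of the total), and 1 UMI in 67 cells of WT 3. Elsewhere in the *Aoah-/-* libraries it was not at 0: before thinning, 10.5% and 7.5% of proximal tubule cells held an *Aoah* UMI, against 21.7% in WT 3, as did 1 type A cell in each *Aoah-/-* library. After thinning, the shares of proximal tubule cells were 1.89%, 1.55% and 3.62% in *Aoah-/-* 2, *Aoah-/-* 3 and WT 3. These shares do not check the genotype, since a UMI near the 3′ end may lie outside the deleted part.

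Genes of neighbouring cell types were present. Of 17 principal and connecting cell markers, 13 reached 50 CPM and none differed 2-fold from type A cells in all libraries (median 0.25). The summed level of the 6 principal cell genes was 815, 824 and 1606 CPM, against a mean of 6264 CPM in principal cells. *Aqp2*, *Fxyd4* and *Hsd11b2* of this list chose the principal cells, so the levels in that class are a description. *Aqp2*, the vasopressin-regulated water channel, was at 172, 147 and 324 CPM against a mean of 1818 CPM in principal cells, *S100g*, a calcium-binding protein, at 2078, 2155 and 3058 CPM, and *Klk1*, the kallikrein of connecting tubule cells, at 3889, 4342 and 2743 CPM. *Calb1*, which encodes calbindin, was at 227, 484 and 282 CPM. The 8 proximal tubule genes summed to 1813, 2748 and 1928 CPM, led by *Gpx3*, against 60095 CPM in proximal tubule cells. The 8 macrophage genes summed to 71.9, 86.0 and 18.7 CPM, against 12479 CPM in leukocytes. *Lrp2* and *Slc34a1* of the proximal list and *Tyrobp* of the macrophage list were limited in pendrin cells by the rule. They also helped to choose the proximal tubule cells and the leukocytes, so these sums are a description. The 6 endothelial genes summed to 37.1, 74.6 and 17.9 CPM, the 5 urothelial genes to 3.05, 9.91 and 3.25 CPM, and the T lymphocyte, B lymphocyte and neutrophil lists to at most 33.4 CPM in any library.

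Members were then described by the genes they held. A UMI of *Slc4a1*, *Aqp6* or *Kit* was found in 124 of the 329 pendrin cells (37.7%), *Kit* in 75, *Aqp6* in 64 and *Slc4a1* in 16. These cells had median totals of 18887, 22564 and 20647 UMIs, against 18117, 7078.5 and 17921 UMIs in the cells without such a UMI. After thinning, *Kit* was found in 3.94%, 2.22% and 2.99% of pendrin cells, against 0.523%, 0.526% and 0.874% of leukocytes, and *Aqp6* in 7.09%, 5.19% and 10.4%, against 0.138%, 0.221% and 0.194%. *Slc26a4* was at 1368, 1196 and 1039 CPM in the cells with such a UMI and at 1221, 1246 and 1094 CPM in those without, and *Hmx2* at 676, 714 and 543 CPM against 733, 690.4 and 772 CPM. Whether a barcode held more than a single cell was not tested by a doublet caller. The 21 cells without a *Slc26a4* UMI (7, 8 and 6) had median totals of 14450, 2837 and 14003.5 UMIs, and *Hmx2* at 360.2, 37.7 and 191 CPM. The 55 cells without an *Hmx2* UMI (16, 31 and 8) also had less *Slc26a4* (313, 543 and 98.4 CPM) and *Igfbp5* (212, 370.1 and 10.9 CPM), with median totals of 11320, 2378 and 12562 UMIs. These cells were shallower than the cells with an *Hmx2* UMI in every library, whose medians were 18887, 17140 and 19796 UMIs, and most of all in *Aoah-/-* 3.

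The cells at the limits of the rule were inspected. In *Aoah-/-* 3, 12 cells had exactly 2 UMIs of the pendrin genes and stood at 492 CPM of *Slc26a4*, and 16 cells just outside with 1 UMI stood at 71.3 CPM, a gap that the limit itself sets. *Hmx2*, which the rule did not use, was at 197 CPM inside and 107 CPM outside. Such cells were few in *Aoah-/-* 2 (2 inside, 6 outside), and WT 3 had 0 of either. Cells with 1 of the 3 intercalated genes (14, 20 and 11) were left out and held *Aqp2* at 2515, 1603 and 883 CPM, with *Hmx2* at 54.7, 39.9 and 0 CPM. At the limit for proximal and thick limb UMIs, cells just inside with 2 such UMIs (40, 46 and 18) had *Slc26a4* at 1241, 1213 and 954 CPM, and cells just outside with 3 (19, 27 and 8) had it at 1246, 1356 and 1108 CPM. *Hmx2* was at 610.0, 783 and 663 CPM inside and at 701, 762 and 563 CPM outside. In all, 55, 116 and 34 otherwise eligible cells were left out for 3 or more of these UMIs, and 13, 16 and 4 for 2 or more leukocyte UMIs.

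**Figure D4:**
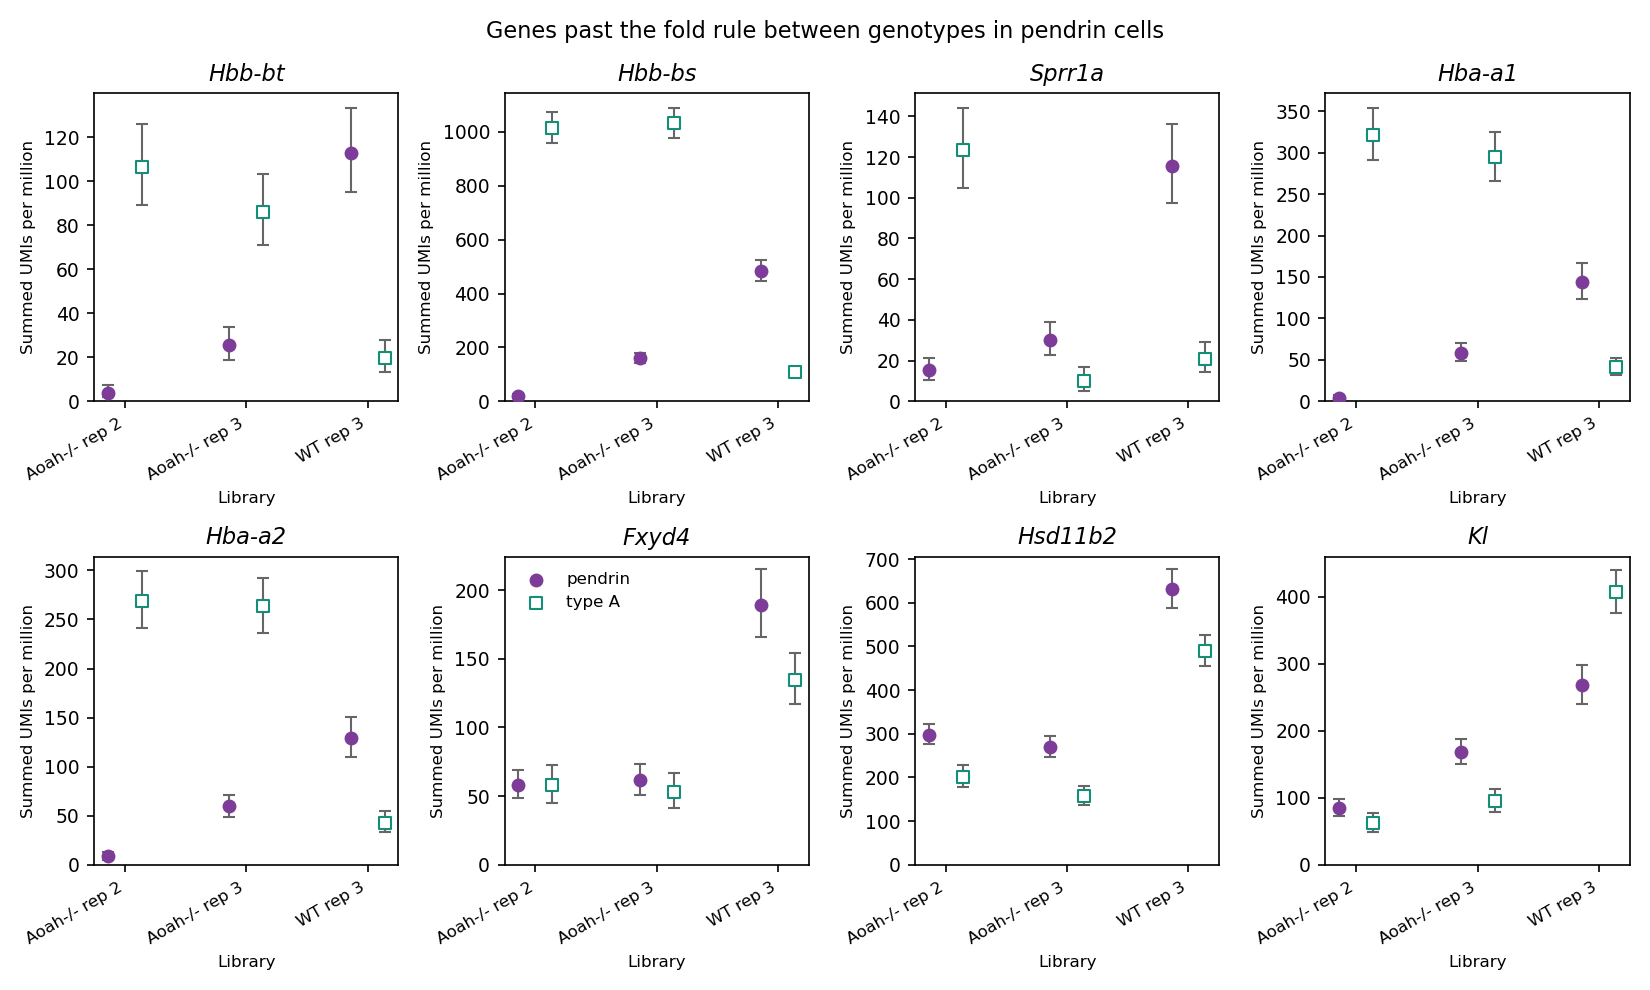
Levels (summed UMIs per 1000000, each panel from 0) of the 8 genes that met the fold rule between genotypes in pendrin cells, by library, in pendrin (filled circles) and type A intercalated cells (open squares), with exact Poisson 95% intervals as bars. *Fxyd4* and *Hsd11b2* are highest in WT 3 in both classes, whereas *Hbb-bs* is highest in WT 3 among pendrin cells (485) and in the *Aoah-/-* libraries among type A cells (1015 and 1033).

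Between the genotypes, few genes of the pendrin cells met a rule of size. A gene was counted if both *Aoah-/-* libraries lay on the same side of WT 3 by more than the gap between them, with at least a 2-fold difference of the mean (10 CPM added), 100 CPM in a group, and Poisson intervals that did not overlap. Of 1541 genes at that level, 0 were higher in the *Aoah-/-* libraries (0%) and 8 were lower (0.519%). At 20% mitochondrial UMIs or less, 9 were higher and 13 were lower. The rule has no p-value. In type A cells, 4 of 1477 genes were higher (0.271%) and 16 were lower (1.08%). The median log2 ratio over the 1541 genes was −0.04.

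A pair of the 8 genes are principal cell genes of the aldosterone response. *Hsd11b2* (chr8:105518755-105523988, plus strand), which inactivates glucocorticoids, was at 298 CPM in *Aoah-/-* 2 (276 to 321), 270.1 in *Aoah-/-* 3 (247 to 294) and 632 in WT 3 (588 to 678). Both *Aoah-/-* libraries lay below WT 3, with a log2 ratio of −1.13 (SD 0.10). It was lower in type A cells too (202, 158 and 489.9 CPM). Principal cells had 1780.5, 2704 and 2587 CPM, and proximal tubule cells and leukocytes at most 32.8 CPM. Since *Aqp2*, *Fxyd4* and *Hsd11b2* chose the principal cells, their levels in that class are a description. *Fxyd4* (chr6:117933559-117937692, minus strand), a regulator of the sodium pump, was at 58.4, 61.5 and 189 CPM (−1.51, SD 0.05), in type A cells at 57.7, 52.8 and 135 CPM, in principal cells at 628, 908 and 1119 CPM, and in proximal tubule cells and leukocytes at no more than 18.2 CPM. Only 26 of 127, 19 of 135 and 18 of 67 pendrin cells held an *Fxyd4* UMI. The summed level of the 6 principal cell genes and the level of *Aqp2*, given above, were also highest in WT 3, and the part of principal cell RNA in these differences was not tested. When cells with 2 or more UMIs of *Aqp2* and *Slc12a3* were left out, the *Fxyd4* ratio turned to 0.85 and that of *Hsd11b2* was −0.48.

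*Kl* (chr5:150952607-150993817, plus strand), which encodes klotho, was at 85.0, 168 and 268 CPM (−1.03, SD 0.64), and 45.8% of its WT UMIs came from 1 cell. In type A cells it was at 62.5, 95.04 and 407 CPM, in distal convoluted tubule cells at 739.7, 1144 and 788 CPM, in proximal tubule cells at 243, 294 and 267 CPM, and in leukocytes at no more than 27.0 CPM. *Sprr1a*, a small proline-rich protein of stressed epithelia, was at 15.3, 30.2 and 115 CPM (−1.94, SD 0.48), and 40.1% of its WT UMIs came from 1 cell. In principal cells *Sprr1a* was at 727, 171 and 219 CPM, with a log2 ratio of 1.00 (SD 1.43) and *Aoah-/-* 3 below WT 3, in type A cells at 123, 9.81 and 20.9 CPM, in proximal tubule cells at 52.4, 28.8 and 29.3 CPM, and in leukocytes at 31.3, 8.79 and 14.3 CPM. In distal convoluted tubule cells it was at 22.0, 6.40 and 57.9 CPM (−1.49, SD 0.68), with both *Aoah-/-* libraries below WT 3. Under a limit of 20% mitochondrial UMIs the *Kl* ratio turned to 0.85.

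The remaining 4 genes encode haemoglobin. *Hbb-bs* (chr7:103826534-103828096, minus strand) was at 19.6, 160.1 and 485 CPM (−2.31, SD 1.78), and 475 of its 597 UMIs in WT 3 (79.6%) came from 1 cell. *Hbb-bt* (−2.31), *Hba-a1* (−1.89) and *Hba-a2* (−1.66) likewise owed 87.8%, 77.4% and 69.2% of their WT UMIs to 1 cell. Over the 5 erythroid genes, the summed level was 36.6, 305 and 873 CPM in pendrin cells and 1714, 1679 and 215 CPM in type A cells, although erythrocytes had been lysed. In type A cells *Hbb-bs* was at 1015, 1033 and 110.0 CPM, where 65.3% and 94.96% of the UMIs of *Aoah-/-* 2 and *Aoah-/-* 3 came from 1 cell each. With the cell richest in each gene left out of every library, the ratio of *Hbb-bs* was −0.41 and only *Fxyd4* and *Hsd11b2* of the 8 genes still met the rule. With the deepest 10% of cells left out, it was instead the 4 haemoglobin genes that met it, and *Fxyd4* was at −0.20 and *Hsd11b2* at −0.62.

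*Hsd11b2* and *Fxyd4* were also the only genes past the rule in the hormone response list (5 genes at 100 CPM) and the ion pump list (4 genes). No gene met the rule among 16 V-ATPase genes (median log2 ratio 0.06), 7 transport genes (0.22), 10 tubule injury genes (−0.06), 20 immediate early and heat shock genes (−0.21), 20 respiratory chain genes (0.02), 11 glycolysis genes (0.01) and 6 junction genes (−0.10) at 100 CPM. Nor did any of the 3 chemokine and cytokine genes at that level (−0.04). The 11 principal and connecting cell genes at that level held *Hsd11b2* and *Fxyd4*, which were lower, with a median of −0.46. Over all 1541 genes at that level, 8 were lower (0.519%), and the median was −0.04. A few list members that did not meet the rule were inspected, chosen after their values were seen. *Lcn2*, which encodes NGAL, was at 481, 48.5 and 29.3 CPM, and 69.7% of its UMIs in *Aoah-/-* 2 came from 1 cell. *Clu*, which encodes clusterin, was at 1322, 783 and 575 CPM, and 36.5% of its UMIs in *Aoah-/-* 2 came from 1 cell. The neutrophil chemokines *Cxcl1* (72.4, 70.9 and 17.9 CPM) and *Cxcl2* (76.7, 89.7 and 6.50 CPM) were higher in both *Aoah-/-* libraries but stayed under the 100 CPM minimum. For *Cxcl1*, 31.3% and 35.3% of the *Aoah-/-* UMIs and 40.9% of the WT UMIs came from 1 cell each. For *Cxcl2*, 31.8% and 49.4% of the *Aoah-/-* UMIs came from 1 cell each, and leukocytes held a mean of 2225 CPM. *Cxcl10* was at 172, 74.6 and 115 CPM, with WT 3 between the *Aoah-/-* libraries. In type A cells *Clu* ran the other way, at 876, 941 and 1341 CPM. *Lcn2* was at 47.4, 62.6 and 32.9 CPM there, *Cxcl1* at 44.3, 29.4 and 26.6, and *Cxcl2* at 72.7, 22.6 and 8.22. These were higher in both *Aoah-/-* libraries, with *Cxcl1* intervals that overlapped that of WT 3.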

How the data were processed

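Kidneys were perfused and digested with collagenase and DNase, erythrocytes were lysed, and libraries of 10x Genomics 3′ tags were made without sorting. The submitters' processing notes name Cell Ranger 3.1.0, STAR, Seurat 4.2.0 and mm10, whereas the header of the deposited matrices names cellranger 6.1.2. The deposited files hold, for each library, whole UMI counts that were not normalized (27998 genes), in barcodes that had passed the authors' cell calling. No column belonged to other samples.

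Cells were chosen by the rule given at the start, applied to the raw counts. The members, gene lists and comparisons were chosen with earlier results of these data known. Principal cells needed 3 UMIs of Aqp2, Fxyd4 and Hsd11b2 together, and distal convoluted tubule cells 3 of Slc12a3 and Pvalb. In both, at most 1 of Atp6v1g3, Atp6v0d2 and Foxi1 could be detected. Proximal tubule cells needed 3 UMIs of Lrp2 and Slc34a1, and leukocytes 3 of Ptprc and Tyrobp. The levels of these genes in those classes are set in part by the choice of cells. UMIs were summed over the cells of a class in each library and given per 1000000 (CPM). Differences between genotypes are the mean of the 2 Aoah-/- libraries against WT, with the SD between the Aoah-/- libraries, which may be technical. The genes named include the markers and the 20 highest and 10 lowest genes against type A cells. All genes past the genotype rule, and the list genes past a rule, were also named. Further genes were chosen with their values known and were not always the most abundant of their list. Other names serve as cell type markers. Doublets were not called, and alternatives without the deepest 10% of cells or without cells carrying Aqp2 and Slc12a3 UMIs were run in place of it. Thinning to the UMI limit was without replacement. Python 3.11.15, numpy 2.4.6, pandas 2.3.3, scipy 1.17.1 and matplotlib 3.10.9 were used, and the scripts were tested on simulated data. Gene positions are those of GENCODE M21, and promoters are from RefSeq on GRCm38.p6. Symbols that repeat (65) were told apart by identifier. The level of 1 gene of the transport list is not reported here.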

Additional observations from a re-analysis of the deposited data

Results flagged for a closer look

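The share of kept cells moved in opposite directions in pendrin and type A intercalated cells: the Aoah-/- mean lay 0.249 percentage points above WT in pendrin cells and 0.204 points below it in type A cells, a gap of 0.454 points between the classes. Both Aoah-/- libraries lay on the same side in each class at the limits used, and the difference between the classes was not tested. With no tubule or leukocyte UMI allowed, Aoah-/- 2 held 27 pendrin cells of 15441 and lay below WT 3, with 24 of 13271.

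All 4 haemoglobin genes lay below WT in the pendrin cells of both Aoah-/- libraries and above WT in their type A cells. The log2 ratio in pendrin cells was −2.31 for Hbb-bt and for Hbb-bs, −1.89 for Hba-a1 and −1.66 for Hba-a2, against 1.85, 3.11, 2.64 and 2.38 in type A cells. These differences were not tested. For each gene, 1 cell held 69.2% to 87.8% of the WT UMIs in pendrin cells. In type A cells, 1 cell held 53.0% to 94.96% of the UMIs of each gene in each Aoah-/- library. The pendrin ratios of Hbb-bt, Hbb-bs and Hba-a1 reversed at 20% mitochondrial UMIs or less. In proximal tubule cells Hbb-bs was at 578, 832 and 1939 CPM and in leukocytes at 1031, 1180 and 4073 CPM in Aoah-/- 2, Aoah-/- 3 and WT 3.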

How the results depend on the processing

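The 1 WT library, 67 pendrin cells in it, and levels carried by single cells limit all genotype comparisons. No paired analysis was possible because the groups share only the replicate number 3 and the result comes from no test.

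The difference in the share of pendrin cells (0.249 percentage points) was 0.0132 with no tubule or leukocyte UMI allowed, 0.397 after thinning, 0.652 with both limits lifted (an alternative chosen after seeing the data), and 0.181 to 0.318 without each Aoah-/- library. The difference in pendrin cells for each type A cell (0.546) was 0.425, 0.769 and 0.686 in the same order, 0.46 without cells carrying 2 or more Aqp2 and Slc12a3 UMIs, and 0.494 to 0.598 without each Aoah-/- library. Both mean differences stayed above 0 in every alternative, although the share in Aoah-/- 2 lay below WT with no tubule or leukocyte UMI allowed.

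The 8 genes past the genotype rule (0 higher, 8 lower) became 22 at 20% mitochondrial UMIs or less (9 higher, 13 lower, 3 of the 8 among them), 23 with no tubule or leukocyte UMI (6 of the 8), 4 (the haemoglobin genes) without the deepest 10% of cells, 2 with the mean of per-cell CPM, 16 at a minimum of 50 CPM, 40 with no minimum, 2 with the richest cell of each gene left out (chosen after seeing the data), and 10 without each Aoah-/- library in turn. At 20% mitochondrial UMIs or less the log2 ratios of Hbb-bt (0.23), Hbb-bs (0.42), Hba-a1 (0.96) and Kl (0.85) reversed. Fxyd4 reversed (0.85) without cells carrying Aqp2 and Slc12a3 UMIs, and Hba-a1 (0.26) and Hba-a2 (0.29) with per-cell means. With mitochondrial genes left out of the total, 3 were higher and 8 lower. Hsd11b2 and Sprr1a stayed below 0 in 16 of 16 alternatives but met the rule in 10 of them, Kl in 7, Fxyd4 in 14 and each haemoglobin gene in 13. The causes were not tested, except that fewer cells remained (48, 75 and 30 at 20% mitochondrial UMIs).

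Of 60 marker levels, 57 moved by less than the spread between libraries. The mean Slc26a4 level (1195 CPM) was 1049 at 20% mitochondrial UMIs and 1333 without cells carrying Aqp2 and Slc12a3 UMIs, where Atp6v1g3 (5403 CPM) was 5992. The mean shares of pendrin cells with a UMI were 73.9%, 40.7%, 66.7% and 52.1% for Slc26a4, Insrr, Spink8 and Hmx2 when thinned, and 93.2%, 89.3%, 91.7% and 84.2% unthinned. The counts against type A cells (44 and 37) stayed within 1.5 times.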
